A study of Mus musculus with 2 samples.

Results

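The genes described here are 30 of the 32285 genes in the deposited tables, chosen by symbol because their products sense or repair damaged DNA, and all 30 symbols were found. They were read in droplet single-cell RNA sequencing of sorted live CD45- cells (CD45 marks leukocytes) from mammary tumors of the mouse, 1 tumor labelled Dll1+ and 1 labelled Dll1-. Dll1 encodes a Notch ligand. Neither tumor had been treated, the digested cells had been stained for CD31, CD45 and Ter119 and sorted, and each library came from 1 tumor. The sources used here do not give the strain, model and age, or how the Dll1 label of a tumor was assigned. In epithelial-like cells Dll1 itself was at 53.5 (52.0 to 55.1) CPM in the Dll1+ and 3.92 (3.55 to 4.32) CPM in the Dll1- library, where CPM is the number of unique molecular identifiers (UMIs) of a gene per 1000000 UMIs of those cells. Expression was thus compared between 2 libraries and not between replicated conditions, so no test could be made, and every interval in brackets is a 95% interval of counting error only.

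DNA breaks are sensed and repaired by layered machinery. The kinases Atm, Atr and Prkdc are recruited to broken or single-stranded DNA, the MRN complex (Mre11a, Rad50, Nbn) holds and trims the ends, and the histone variant H2afx is phosphorylated around the break, where Mdc1, Rnf8, Rnf168 and Trp53bp1 gather. A double-strand break is then either copied from the sister chromatid by homologous recombination, which runs in S and G2 phase and uses Brca1 and Brca2, or joined directly by end joining, which can run throughout the cell cycle. In mammary tissue this machinery is best known because inherited loss of BRCA1, BRCA2 or PALB2 predisposes to breast cancer.

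The Dll1+ library gave 9685 cells with a median of 7882 UMIs and of 5.39% mitochondrial UMIs per cell, and the Dll1- library 10132 cells with 9907.5 UMIs and 3.54%. The libraries shared 109 barcodes, of which 58 and 62 were among the cells kept. Epithelial-like cells numbered 8195 and 8691, and all 10 of their markers were detected in at least 20% of these cells in both libraries. Their sub-states, each called here by leading genes, were distributed unequally between the libraries. A Cxcl10-led state held 5638 Dll1+ and 4 Dll1- cells and an Rbp7-led state 813 and 0, while a Lalba- and Wap-led state held 820 and 4964 and an Lgals3-led state 196 and 3010. A Ube2c-led state, rich in mitotic genes, held 119 and 513 cells, an Spp1-led state 599 and 123, and an Sprr1a-led state 10 and 77. The Rbp7-led and Sprr1a-led states had more markers of another class than of epithelium among their 10 leading genes, so the counts and medians over all epithelial-like cells are also given without them, an alternative chosen after seeing the data.

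The promoters of the genes were read first, because most of the 30 genes were higher in cells with many cell cycle transcripts. Windows from 250 bases before to 50 bases after the start of transcription (RefSeq, GRCm38.p6) were matched for 25 of the 30 genes, giving 27 promoters; Nbn, Fancd2, H2afx, Rad50 and Prkdc had none in the table used. The letters of the E2F motif, TTTGGCGC, TTTCCCGC, TTTCGCGC or TTTGCCGC on either strand, stood in 5 of these 27 promoters (18.5%) and in 744 of 32851 promoters of all genes (2.26%). They lay in Bard1 at chr1:71102923-71103222 (minus strand), Chek2 at chr5:110839733-110840032 (plus strand), Brca2 at chr5:150522371-150522670 (plus strand), Xrcc6 at chr15:82016119-82016418 (plus strand) and Mdc1 at chr17:35841248-35841547 (plus strand). The letters TTTGAA of the CHR element, known from genes of G2 and mitosis, stood in 3 of the 27 (11.1%), those of Bard1, Polq and Rnf8, and in 17.9% of all promoters; the 2 motifs did not overlap in the Bard1 window. Polq lies at chr16:37011536-37011835 (plus strand), and Brca1, shown as a promoter with neither set of letters in this window, at chr11:101551906-101552205 (minus strand). Each sequence is the gene's own strand from 5′ to 3′, with the letters of either motif, or of its reverse complement, in capitals.
Bard1: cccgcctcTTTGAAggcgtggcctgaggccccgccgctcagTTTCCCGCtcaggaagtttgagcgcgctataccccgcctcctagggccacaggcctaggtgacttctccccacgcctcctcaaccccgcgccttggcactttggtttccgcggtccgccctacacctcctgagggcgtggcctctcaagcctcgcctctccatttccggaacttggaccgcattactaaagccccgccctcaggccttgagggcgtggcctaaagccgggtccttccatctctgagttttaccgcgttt
Chek2: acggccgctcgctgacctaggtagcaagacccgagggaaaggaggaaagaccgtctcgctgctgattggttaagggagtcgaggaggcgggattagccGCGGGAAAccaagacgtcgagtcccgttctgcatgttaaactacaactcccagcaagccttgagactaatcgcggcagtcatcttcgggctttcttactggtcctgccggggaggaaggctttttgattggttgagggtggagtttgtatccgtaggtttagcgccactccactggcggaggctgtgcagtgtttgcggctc
Brca2: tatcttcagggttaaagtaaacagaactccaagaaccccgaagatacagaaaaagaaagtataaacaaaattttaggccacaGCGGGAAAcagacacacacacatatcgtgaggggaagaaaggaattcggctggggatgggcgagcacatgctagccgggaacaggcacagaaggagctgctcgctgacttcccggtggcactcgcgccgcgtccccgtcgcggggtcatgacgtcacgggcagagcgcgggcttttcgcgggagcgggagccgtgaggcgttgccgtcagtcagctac
Xrcc6: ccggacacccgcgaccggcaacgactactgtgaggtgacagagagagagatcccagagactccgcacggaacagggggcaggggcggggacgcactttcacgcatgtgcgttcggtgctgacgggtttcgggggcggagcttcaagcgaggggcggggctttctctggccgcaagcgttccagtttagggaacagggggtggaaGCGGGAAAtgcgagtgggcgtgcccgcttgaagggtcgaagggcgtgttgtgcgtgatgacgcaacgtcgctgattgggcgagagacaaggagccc
Mdc1: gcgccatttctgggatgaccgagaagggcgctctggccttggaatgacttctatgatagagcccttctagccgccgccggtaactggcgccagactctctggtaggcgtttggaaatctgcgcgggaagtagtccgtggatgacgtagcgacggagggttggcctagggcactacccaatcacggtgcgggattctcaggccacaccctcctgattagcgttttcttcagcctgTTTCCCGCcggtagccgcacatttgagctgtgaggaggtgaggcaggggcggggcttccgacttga
Polq: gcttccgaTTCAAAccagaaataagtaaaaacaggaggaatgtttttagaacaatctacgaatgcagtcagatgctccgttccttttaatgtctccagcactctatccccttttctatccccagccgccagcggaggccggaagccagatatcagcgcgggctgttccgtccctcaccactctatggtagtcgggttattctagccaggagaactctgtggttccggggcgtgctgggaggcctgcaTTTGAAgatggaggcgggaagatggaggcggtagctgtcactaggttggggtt
Brca1: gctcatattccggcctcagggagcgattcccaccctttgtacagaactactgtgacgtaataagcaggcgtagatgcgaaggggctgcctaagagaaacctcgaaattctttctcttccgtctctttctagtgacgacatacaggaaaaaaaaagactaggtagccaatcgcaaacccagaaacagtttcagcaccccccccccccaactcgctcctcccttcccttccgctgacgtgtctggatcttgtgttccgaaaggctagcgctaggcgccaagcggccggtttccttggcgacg

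The letters are a description of these windows and not evidence of a bound factor. Measured from the start of transcription, the E2F letters began at -209 in Bard1, -152 in Chek2, -168 in Brca2, -46 in Xrcc6 and -16 in Mdc1. The CHR letters began at -242 in Bard1, -242 and -3 in Polq and -205 in Rnf8. All 5 genes with E2F letters were at least 1.5-fold higher in cells rich in cell cycle transcripts in both libraries, as described next, and so were 11 of the 20 matched genes without them, Brca1 among the latter.

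Within each tumor, the level of most of the repair genes went with the number of cell cycle transcripts in the cell. Epithelial-like cells with at least 2000 UMIs were thinned to 2000 UMIs and placed by their UMIs of 18 S phase and 20 G2/M genes, none of them a gene of this set, into cycle-low (0 or 1), intermediate (2 to 4) and cycle-high cells (at least 5). These are ranges of a count, not cell types; 176 Dll1+ and 128 Dll1- cells lay next to the upper limit, and 2154 and 2528 next to the lower. Cycle-high cells were 788 of 7588 (10.4%, 9.71 to 11.1) in the Dll1+ and 581 of 8505 (6.83%, 6.30 to 7.39) in the Dll1- library. The 30 genes together made up 397 CPM in cycle-low, 537 in intermediate and 926 CPM in cycle-high Dll1+ cells, and 351, 399 and 811 CPM in the Dll1- cells. Cycle-high cells also held more RNA, with medians of 19121 and 20409 UMIs against 7906 and 10500 in cycle-low cells.

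In the Dll1+ library 23 of the 30 genes were at least 1.5-fold higher in cycle-high than in cycle-low cells and 1 at least 1.5-fold lower, where 19.9% and 20% of the 13942 genes measured were. In the Dll1- library 22 were higher and 0 lower, against 18.2% and 11.9% of 13596 genes. The median log2 ratio over the 30 genes was 1.24 and 1.21, and that over all genes was -0.013 and 0.046. Ratios and their bounds in brackets are log2 of CPM plus 1. Of the 30 genes 21 passed 1.5-fold in both libraries and 10 passed 3-fold in both, against 14.5% and 3.11% of the 13151 genes measured in both. The cells on the 2 sides sat in different states. Of the 788 cycle-high Dll1+ cells 596 were in the Rbp7-led state, and of the 6111 cycle-low ones 78 were there and 4618 in the Cxcl10-led state. In the Dll1- library 482 of 581 cycle-high cells were in the Ube2c-led state and 4387 of 7168 cycle-low cells in the Lalba- and Wap-led state. Without the Rbp7-led and Sprr1a-led states, which left 192 cycle-high Dll1+ cells, 19 of 29 genes were higher and 0 lower in that library, against 17.9% and 22.1% of all genes, with a median of 1.11, and 22 of 30 were higher and 0 lower in the Dll1- library, against 18.3% and 11.5%. In both libraries 18 of 29 then passed 1.5-fold and 9 passed 3-fold, against 13.6% and 2.89%. Across the 30 genes the ratios of the libraries went together (Pearson r = 0.97, Spearman rho = 0.97), as a description over genes that share cells and depth. The plot of cycle ratios shows the order of the genes by role.

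**Figure D1:**
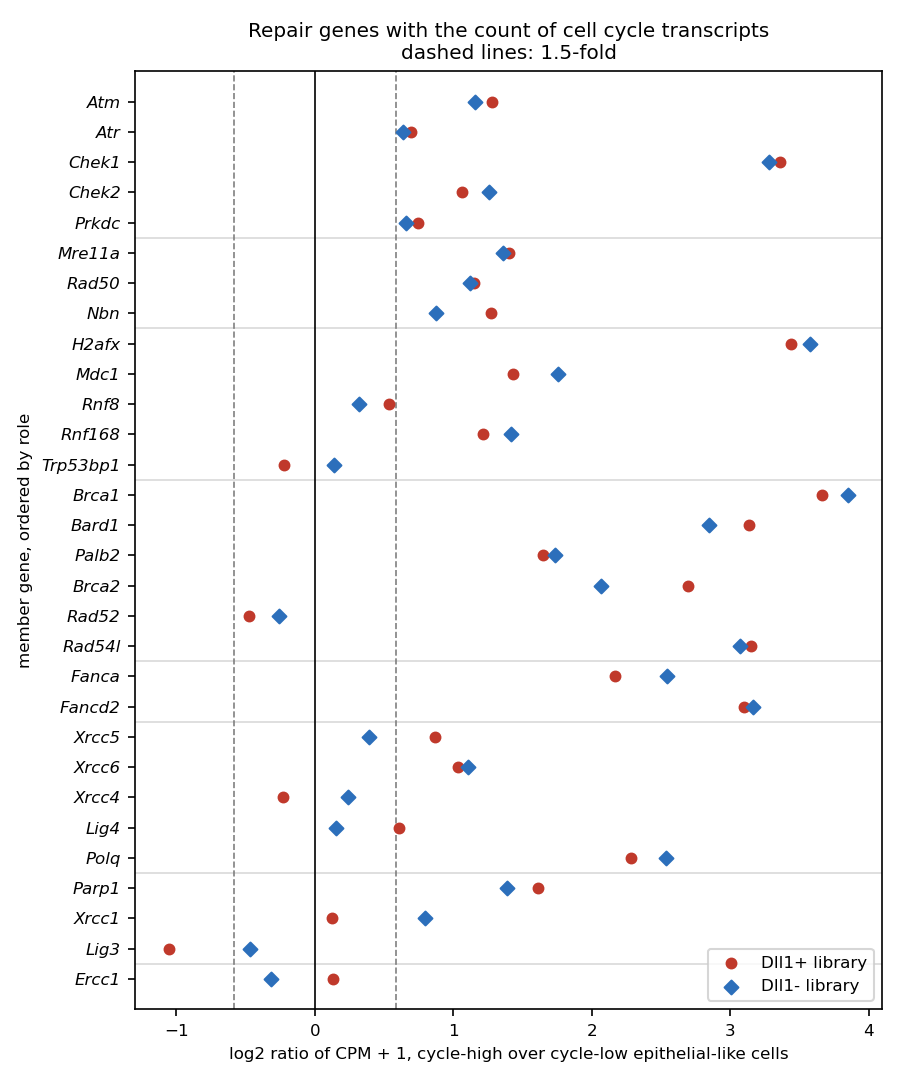
The horizontal axis gives the log2 ratio of CPM plus 1 in cycle-high over cycle-low epithelial-like cells and the vertical axis the 30 genes by role, with red circles for the Dll1+ and blue diamonds for the Dll1- library. Brca1, H2afx, Chek1, Fancd2 and Rad54l lie above 3 in both libraries, and Lig3 and Rad52 lie below 0 in both; dashed lines mark 1.5-fold.

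Of the 6 genes of homologous recombination 5 were at least 3-fold higher in cycle-high cells of both libraries. In each pair of values the Dll1+ library is given first, as for the genes that follow. Brca1, the ubiquitin ligase that promotes end resection, was at 19.0 (16.9 to 21.2) against 0.579 (0.398 to 0.813) CPM in cycle-high against cycle-low Dll1+ cells and at 17.4 (15.1 to 19.9) against 0.276 (0.175 to 0.414) CPM in Dll1- cells, log2 ratios of 3.66 (3.42 to 3.87) and 3.85 (3.64 to 4.02). A Brca1 UMI was found in 28.4% of cycle-high and 0.507% of cycle-low Dll1+ cells, and in 25.5% and 0.321% of Dll1- cells. With each cell thinned to 2000 UMIs these shares were 2.92%, 0.229%, 3.79% and 0.0279%. Few cycle-low cells of either tumor thus yielded a Brca1 molecule. Bard1, its obligate partner, was at 13.7 (11.9 to 15.6) against 0.666 (0.472 to 0.915) CPM and at 7.48 (6.03 to 9.17) against 0.180 (0.101 to 0.297) CPM, in the same order. Brca2, a mediator of homologous recombination, was at 16.8 (14.9 to 19.0) against 1.75 (1.43 to 2.13) CPM and at 10.98 (9.20 to 12.99) against 1.86 (1.58 to 2.18) CPM. Palb2 bridges Brca1 and Brca2. Its ratios were 1.65 (1.30 to 1.96) in Dll1+ and 1.73 (1.38 to 2.06) in Dll1- cells, on 71 against 43 and 60 against 64 UMIs. Rad54l, a DNA-dependent motor protein of homologous recombination, had ratios of 3.15 (2.89 to 3.39) and 3.07 (2.81 to 3.30). Rad52, which anneals complementary strands, went the other way, with 5.75 (4.63 to 7.06) against 8.40 (7.67 to 9.19) CPM and 5.94 (4.65 to 7.46) against 7.28 (6.71 to 7.88) CPM and ratios of -0.48 (-0.77 to -0.19) and -0.26 (-0.57 to 0.051). Without the Rbp7-led state its Dll1+ ratio changed sign, to 0.14 (-0.34 to 0.60), with 0 inside the interval.

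Both Fanconi genes, which act in the repair of DNA crosslinks, were higher in cycle-high cells. Fancd2, whose ubiquitinated form marks the crosslink, was at 9.98 (8.49 to 11.7) against 0.281 (0.160 to 0.456) CPM and at 9.27 (7.65 to 11.1) against 0.144 (0.0744 to 0.251) CPM in the Dll1+ and Dll1- libraries. Fanca, a subunit of the ligase complex that modifies it, had ratios of 2.16 (1.89 to 2.43) and 2.54 (2.26 to 2.80). Polq, the polymerase of microhomology-mediated end joining, was alike in direction, with 80 against 14 UMIs in Dll1+ and 65 against 7 in Dll1- cells and ratios of 2.28 (1.99 to 2.50) and 2.54 (2.30 to 2.68). The core end-joining genes were not uniform. Xrcc6 (Ku70), one subunit of the Ku ring that threads onto broken ends, had ratios of 1.04 (0.89 to 1.19) and 1.11 (0.94 to 1.27), and Xrcc5 (Ku80), the other, 0.87 (0.72 to 1.01) and 0.39 (0.20 to 0.58). Without the Rbp7-led state the Dll1+ ratio of Xrcc5 was 0.31 (-0.012 to 0.61) and that of Xrcc6 was 1.11 (0.85 to 1.37). The ratios of Xrcc4, the scaffold of the ligase, were -0.23 (-0.46 to -0.0075) and 0.24 (-0.0015 to 0.48), on opposite sides of 0, the second interval including 0, and those of the ligase Lig4 were 0.61 (0.24 to 0.96) and 0.15 (-0.26 to 0.56).

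Among the kinases, Chek1, the effector of Atr at stalled replication forks, was at 20.1 (17.9 to 22.4) against 1.05 (0.803 to 1.35) CPM and at 17.8 (15.5 to 20.3) against 0.935 (0.740 to 1.17) CPM, ratios of 3.36 and 3.28. The other 4 kinases were 1.5-fold higher as well, but by less. Chek2, the effector of Atm, had ratios of 1.06 (0.89 to 1.23) and 1.26 (1.06 to 1.45), and Atm itself 1.28 (1.08 to 1.47) and 1.16 (0.93 to 1.38). Atr had 0.69 (0.49 to 0.90) and 0.64 (0.37 to 0.89), and Prkdc, the kinase of end joining, 0.74 (0.46 to 1.02) and 0.66 (0.30 to 1.01). Without the Rbp7-led state the Dll1+ ratio of Prkdc was 0.54 (-0.026 to 1.09), under 1.5-fold. Those of Atm, Atr and Chek2 were then 1.54, 0.74 and 0.83. The 3 MRN genes had ratios between 0.87 (Nbn, Dll1-) and 1.40 (Mre11a, Dll1+). Of these, Rad50 had the most UMIs, and it was at 63.8 (59.9 to 67.8) against 28.2 (26.8 to 29.6) CPM and at 56.7 (52.5 to 61.0) against 25.5 (24.4 to 26.6) CPM.

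H2afx, the histone variant whose phosphorylated form marks breaks, was at 256 (248 to 264) against 22.7 (21.5 to 24.0) CPM in the Dll1+ and at 226 (218 to 234) against 18.0 (17.1 to 19.0) CPM in the Dll1- library, ratios of 3.44 (3.35 to 3.53) and 3.57 (3.49 to 3.66). It was found in 79.9% and 80.7% of cycle-high cells and in 17.1% and 17.2% of cycle-low cells, and after thinning to 2000 UMIs in 33.2% and 30.8% against 3.99% and 3.49%. Mdc1, the scaffold that binds phosphorylated H2afx, had ratios of 1.43 (1.21 to 1.65) and 1.76 (1.54 to 1.97), and the ubiquitin ligase Rnf168 had 1.21 (1.04 to 1.38) and 1.41 (1.23 to 1.60). Rnf8, the ligase that acts before Rnf168, stayed under 1.5-fold with 0.53 (0.38 to 0.69) and 0.32 (0.14 to 0.49). Trp53bp1 (53BP1), which protects ends from resection, had -0.23 (-0.40 to -0.053) and 0.14 (-0.03 to 0.30), again on opposite sides of 0 with 0 inside the second interval.

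The genes of single-strand break repair split. Parp1, which senses nicks and makes poly(ADP-ribose), was at 85.8 (81.3 to 90.4) against 27.3 (26.0 to 28.7) CPM and at 64.2 (59.8 to 68.9) against 23.9 (22.9 to 25.0) CPM, ratios of 1.61 (1.51 to 1.72) and 1.39 (1.27 to 1.504). Xrcc1, the scaffold that binds this polymer, had ratios of 0.12 (0.0032 to 0.24) in Dll1+ and 0.79 (0.64 to 0.95) in Dll1- cells. Lig3, the ligase that Xrcc1 carries, was lower in cycle-high cells, at 37.4 (34.5 to 40.6) against 78.6 (76.3 to 81.0) CPM and at 66.7 (62.2 to 71.4) against 92.4 (90.4 to 94.5) CPM, ratios of -1.05 (-1.17 to -0.93) and -0.47 (-0.57 to -0.36). It was the only gene of the set at least 1.5-fold lower in cycle-high cells, in the Dll1+ library, and without the Rbp7-led and Sprr1a-led states its ratio there was -0.33 (-0.52 to -0.14). Ercc1, the partner of the Xpf nuclease in excision and crosslink repair, was within 1.5-fold, at 0.13 (-0.019 to 0.29) and -0.32 (-0.51 to -0.13).

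Cycle-high cells were further divided by which list gave more UMIs, into 215 S-led and 573 G2/M-led Dll1+ cells and 124 and 457 Dll1- cells, a tie counting as G2/M-led. Chek1, Brca1, Bard1 and Rnf168 were higher in S-led cells of both libraries by their counting intervals, and H2afx was lower. Brca1 was at 29.0 CPM in S-led and 15.4 CPM in G2/M-led cells (0.87, 0.54 to 1.196) in the Dll1+ and at 28.4 CPM in S-led and 14.9 CPM in G2/M-led cells (0.89, 0.46 to 1.30) in the Dll1- library, the brackets giving the log2 ratio. Chek1 was at 31.0 CPM in S-led and 16.3 CPM in G2/M-led cells (0.89, 0.57 to 1.21) and at 27.6 CPM in S-led and 15.6 CPM in G2/M-led cells (0.78, 0.35 to 1.195). Bard1 and Rnf168 had ratios of 0.76 (0.37 to 1.14) and 0.87 (0.59 to 1.14) in Dll1+ and of 0.73 (0.089 to 1.34) and 0.72 (0.35 to 1.07) in Dll1- cells. H2afx was lower in S-led cells, at 119.6 CPM in S-led and 304 CPM in G2/M-led cells (-1.34, -1.48 to -1.204) and at 140.0 CPM in S-led and 245 CPM in G2/M-led cells (-0.80, -0.98 to -0.64). In Dll1+ cells alone the interval also lay above 0 for Rad54l (0.51, 0.15 to 0.87) and Parp1 (0.20, 0.028 to 0.37) and below 0 for Chek2 (-0.38, -0.72 to -0.048), Mdc1 (-0.45, -0.88 to -0.029), Fancd2 (-0.80, -1.37 to -0.24) and Polq (-0.90, -1.62 to -0.17). In Dll1- cells alone it lay above 0 for Atm (0.88, 0.43 to 1.31) and below 0 for Xrcc1 (-0.39, -0.80 to -0.0042). For the remaining 17 genes it included 0 in both libraries. Without the Rbp7-led and Sprr1a-led states 70 S-led and 122 G2/M-led Dll1+ cells were left. The interval then lay above 0 in that library for Rnf168 and Parp1 and below 0 for H2afx, and it included 0 for Chek1 (0.32, -0.29 to 0.91), Brca1 (0.55, -0.25 to 1.34) and Bard1 (0.96, -0.079 to 1.97). Whether the libraries differ in these was not tested. Intervals between S-led and G2/M-led cells were not counted over all genes, so these counts have no background share beside them.

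The libraries were then compared. In epithelial-like cells the 30 genes together made up 516 (511 to 520) CPM in the Dll1+ and 409 (405 to 413) CPM in the Dll1- library. Of the 30 genes 7 were at least 1.5-fold higher in the Dll1+ library and 0 lower, where 20.6% of 15256 genes were higher and 5.87% lower. The share of 23.3% higher is thus near the background. With no CPM added, chosen after seeing the data, 12 were higher and 0 lower, against 30.4% and 9.93% of genes. The median ratio of the 30 genes was 0.46 and that of all genes 0.20, and the counting interval lay above 0 for 26 of the 30 genes and below 0 for 2. Intervals were not counted over all genes, so these counts have no background share beside them. These cells also differed in depth, with medians of 8016 and 10663 UMIs and 5.68% and 3.67% mitochondrial UMIs. Fibroblast markers summed to 81.0 and 26.6 CPM and neutrophil markers to 214 and 581 CPM, Dll1+ cells first. Of the fibroblast markers 0 of 10 were detected in 20% of the cells of either library, and of the neutrophil markers 0 of 4 in the Dll1+ and 1 of 4 in the Dll1- library. None of these markers was at 0, and the part of these differences in the ratios was not tested. The levels of all 30 genes in both libraries are drawn in the plot of epithelial levels.

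**Figure D2:**
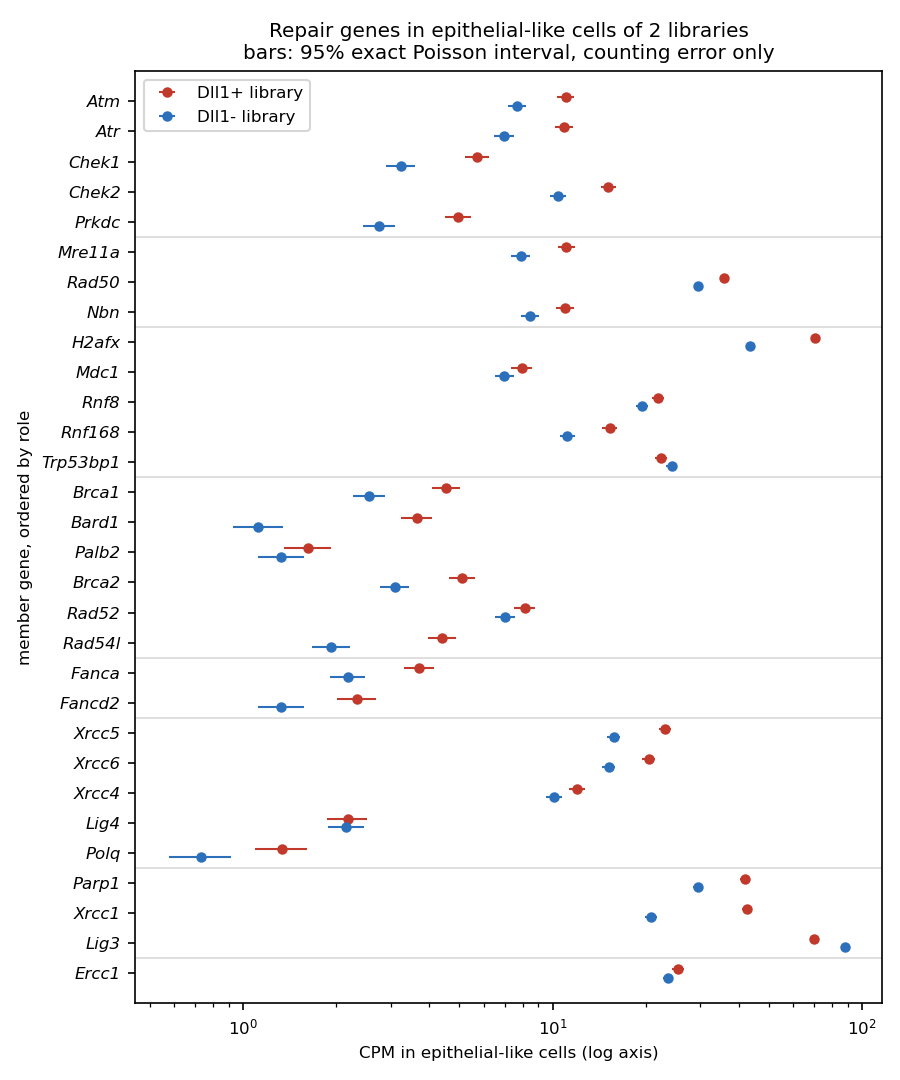
The horizontal axis, on a log scale, gives CPM in epithelial-like cells and the vertical axis the 30 genes by role, with red circles for the Dll1+ and blue circles for the Dll1- library and 95% Poisson intervals as bars. The red circle lies to the right for 28 of the 30 genes and to the left for Trp53bp1 and Lig3; with TMM scaling 22 ratios stay above 0.

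By role, 2 of 5 kinases, 1 of 5 genes of the chromatin response, 3 of 6 genes of homologous recombination and 1 of 3 genes of single-strand break repair passed 1.5-fold, and 0 of the 3 MRN, 2 Fanconi and 5 end-joining genes. Bard1 had the highest ratio, with 3.64 (3.24 to 4.08) CPM in the Dll1+ and 1.12 (0.927 to 1.34) CPM in the Dll1- library, a ratio of 1.13 (0.94 to 1.32). Xrcc1 followed, with 42.3 (40.9 to 43.8) CPM in the Dll1+ and 20.8 (19.9 to 21.7) CPM in the Dll1- library, and a ratio of 0.99 (0.92 to 1.07). The intervals of the 2 libraries did not overlap for either gene. How often this held over all genes was not counted, here or for the genes below. Rad54l was at 4.40 (3.96 to 4.88) CPM in the Dll1+ and 1.93 (1.67 to 2.21) CPM in the Dll1- library (0.88), and H2afx at 70.3 (68.5 to 72.1) CPM in the Dll1+ and 43.3 (42.1 to 44.6) CPM in the Dll1- library (0.68). Brca1 was at 4.54 (4.09 to 5.02) CPM in the Dll1+ and 2.55 (2.26 to 2.88) CPM in the Dll1- library (0.64). The intervals of the libraries were apart for these 3 genes as well. Chek1 was at 5.70 (5.20 to 6.24) CPM in the Dll1+ and 3.24 (2.90 to 3.60) CPM in the Dll1- library (0.66), and Prkdc at 4.95 (4.48 to 5.45) CPM in the Dll1+ and 2.75 (2.45 to 3.09) CPM in the Dll1- library (0.66). Of these 7, Xrcc1 alone was not at least 1.5-fold higher in cycle-high than in cycle-low cells of both libraries.

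The remaining kinases lay just under 1.5-fold. Atr was at 10.9 (10.2 to 11.6) CPM in the Dll1+ and 6.96 (6.47 to 7.48) CPM in the Dll1- library, a ratio of 0.58 (0.45 to 0.70), and Atm at 11.01 (10.3 to 11.7) CPM in the Dll1+ and 7.68 (7.16 to 8.23) CPM in the Dll1- library, a ratio of 0.47 (0.34 to 0.59). Chek2 was at 15.1 (14.3 to 16.0) CPM in the Dll1+ and 10.4 (9.82 to 11.1) CPM in the Dll1- library, with 0.50 (0.39 to 0.61). For each of these 3 kinases the intervals of the libraries did not overlap, again without a count over all genes. The MRN genes were closer still between the libraries: Mre11a, the nuclease, had a ratio of 0.44 (0.32 to 0.57), Nbn, which brings Atm to the complex, 0.34 (0.21 to 0.46), and Rad50, the tether, 0.27 (0.20 to 0.34). Among genes of the chromatin response Rnf168 had 0.42 (0.32 to 0.53), Rnf8 0.17 (0.079 to 0.25) and Mdc1 0.16 (0.028 to 0.30). Trp53bp1 was lower in the Dll1+ library, at 22.4 (21.4 to 23.4) CPM in the Dll1+ and 24.3 (23.3 to 25.2) CPM in the Dll1- library, with -0.11 (-0.19 to -0.027).

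Brca2 was at 5.09 (4.62 to 5.60) CPM in the Dll1+ and 3.09 (2.76 to 3.44) CPM in the Dll1- library, with a ratio of 0.58 (0.41 to 0.74), Palb2 had 0.17 (-0.039 to 0.38) and Rad52 0.19 (0.052 to 0.32). Fanca and Fancd2 had ratios of 0.57 (0.38 to 0.75) and 0.52 (0.31 to 0.72). Of these 5 genes only Palb2 had an interval that included 0. In end joining, Xrcc5 was at 23.1 (22.1 to 24.2) CPM in the Dll1+ and 15.8 (15.02 to 16.5) CPM in the Dll1- library (0.52) and Xrcc6 at 20.4 (19.5 to 21.4) CPM in the Dll1+ and 15.2 (14.5 to 16.0) CPM in the Dll1- library (0.40). Both Ku subunits were thus higher in the Dll1+ library, each by less than 1.5-fold. Xrcc4 had a ratio of 0.23 (0.11 to 0.34) and Polq one of 0.43 (0.22 to 0.64). Lig4 was level, at 2.18 (1.87 to 2.52) CPM in the Dll1+ and 2.16 (1.88 to 2.45) CPM in the Dll1- library. Parp1 was at 41.8 (40.4 to 43.2) CPM in the Dll1+ and 29.4 (28.4 to 30.5) CPM in the Dll1- library, a ratio of 0.49 (0.43 to 0.56), and Ercc1 had 0.11 (0.025 to 0.19). Lig3 was the gene with the largest difference towards the Dll1- library, at 69.9 (68.1 to 71.7) CPM in the Dll1+ and 88.3 (86.5 to 90.1) CPM in the Dll1- library, with -0.33 (-0.38 to -0.29).

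The Rbp7-led state held Dll1+ cells only. Without it alone, chosen after seeing the data, 1 of the 30 genes was at least 1.5-fold higher and 0 lower, against 19.2% and 6.10% of 15060 genes, with a median of 0.043 against 0.15 for all genes. Without both the Rbp7-led and the Sprr1a-led state 1 of the 30 genes was at least 1.5-fold higher (Xrcc1, ratio 0.97) and 0 lower, against 19.3% and 5.92% of 15017 genes. The median of the 30 genes was then 0.047 and that of all genes 0.15. Brca1 turned to -0.43, H2afx to -0.41, Chek1 to -0.093 and Rad54l to -0.020, and Bard1 dropped to 0.15. Without the Rbp7-led state alone Fancd2 turned to -0.38 (-0.60 to -0.15) and Mdc1 to -0.16 (-0.31 to -0.003). Brca2 turned to -0.16 (-0.35 to 0.042), Polq to -0.20 (-0.41 to 0.024), Palb2 to -0.15 (-0.38 to 0.076) and Lig4 to -0.059 (-0.27 to 0.15). For these 4 genes the interval included 0, as it did for Trp53bp1 (-0.082, -0.17 to 0.0063). Parp1 dropped to 0.10 (0.022 to 0.18). In that setting 18 of the 30 ratios lay above 0. With the 4 states found in both libraries weighted alike, 1 gene passed (Lig4, 0.66), Brca1 turned to -0.32 and H2afx to -0.043, and the median was 0.12. Scaling by trimmed means of M values (TMM) in place of total UMIs shifted epithelial log2 ratios by -0.26 and left 3 genes higher (Bard1, Xrcc1 and Rad54l) and 1 lower (Lig3), against 13.6% and 10.4% of genes, and 22 of the 30 ratios above 0 in place of 28.

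Cell cycle transcripts were also more frequent in the Dll1+ epithelial-like cells, in which the S list summed to 480 against 318 CPM and the G2/M list to 791 against 612 CPM. The Rbp7-led state, which had no Dll1- cell, held 1431 CPM of the S and 3172 CPM of the G2/M list. Without it 192 cycle-high and 6033 cycle-low Dll1+ cells were left, against 581 and 7168 Dll1- cells. The higher frequency thus held only with that state included. Of the 788 cycle-high Dll1+ cells 596 were of the Rbp7-led state and 105 of the Ube2c-led state, and of the 581 Dll1- cells 482 were of the Ube2c-led state. In cycle-low cells 1 of 28 genes measured was at least 1.5-fold higher in the Dll1+ library and 0 lower, against 20.9% and 6.04% of all genes, and the median was 0.25 against 0.18 for all genes. That gene was Xrcc1, at 41.5 (39.8 to 43.2) CPM in Dll1+ and 18.7 (17.8 to 19.7) CPM in Dll1- cells, a ratio of 1.11 (1.02 to 1.19). Fancd2 and Polq had fewer than 30 UMIs there and were not counted. The count depends on the 1 CPM added, since several of these genes lay near or below 1 CPM in cycle-low cells. With no CPM added 7 of 28 were at least 1.5-fold higher and 0 lower, against 29.4% and 9.55% of genes, the further ones being Atr, Prkdc, Brca1, Bard1, Rad54l and Fanca. Brca1 was at 0.579 (0.398 to 0.813) CPM in Dll1+ and 0.276 (0.175 to 0.414) CPM in Dll1- cells, on 33 and 23 UMIs. Without the Rbp7-led and Sprr1a-led states the count was again 1 of 28 higher and 0 lower with 1 CPM added, against 21% and 5.74%.

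In cycle-high cells 4 of the 30 genes were at least 1.5-fold higher in the Dll1+ library and 1 lower, against 19.0% and 9.57% of all genes, with a median of 0.20 against 0.16 for all genes. The higher ones were Bard1, at 13.7 (11.9 to 15.6) CPM against 7.48 (6.03 to 9.17) CPM (0.79), Xrcc5, at 35.6 (32.8 to 38.7) CPM against 20.6 (18.1 to 23.3) CPM (0.76), Prkdc (0.65) and Atr (0.59). Lig3 was lower, at 37.4 (34.5 to 40.6) CPM against 66.7 (62.2 to 71.4) CPM (-0.82, -0.97 to -0.67). H2afx and Brca1, which passed over all epithelial-like cells, had ratios of 0.18 (0.11 to 0.25) and 0.12 (-0.13 to 0.36) here. Without the Rbp7-led and Sprr1a-led states, and so with 192 Dll1+ and 581 Dll1- cells, 3 were higher (Atm, Atr and Rad52) and 1 lower (Polq), against 10.8% and 5.91%. The plot of library ratios sets the 3 comparisons side by side.

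**Figure D3:**
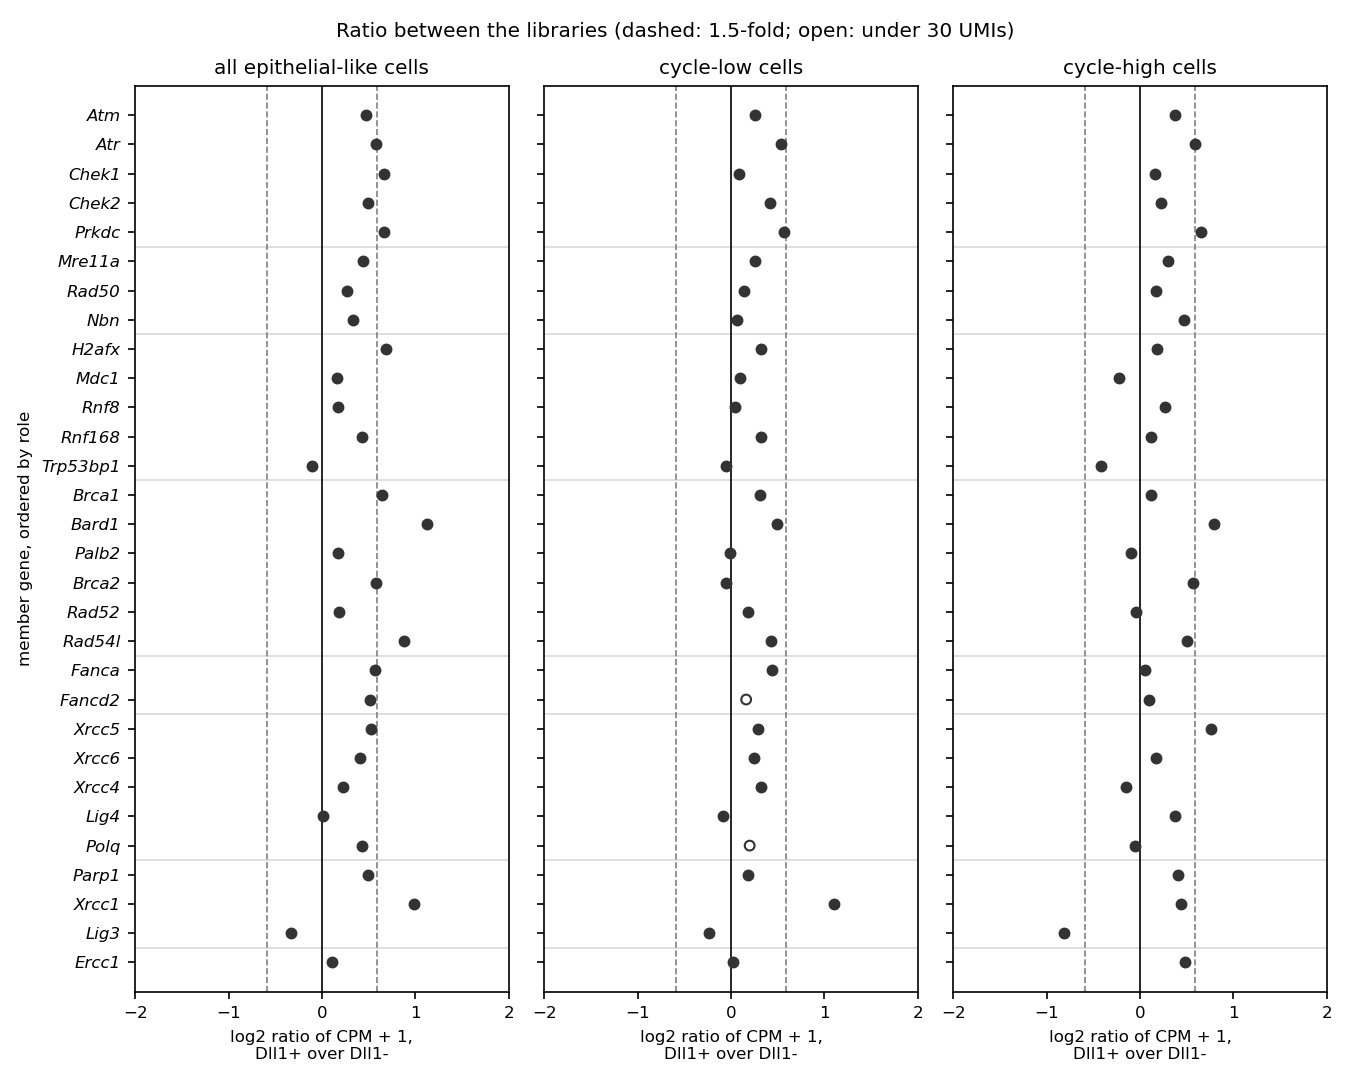
The horizontal axis gives the log2 ratio of CPM plus 1, Dll1+ over Dll1-, and the vertical axis the 30 genes by role, in 1 panel each for all, cycle-low and cycle-high epithelial-like cells; dashed lines mark 1.5-fold and open circles genes with under 30 UMIs. Xrcc1 lies past 1.5-fold in cycle-low cells (1.11), Lig3 lies below 0 in all 3 comparisons, and Bard1 lies at 1.13 over all cells and at 0.79 in cycle-high cells.

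The sub-states differed among themselves. The 30 genes summed to 895 CPM in the Rbp7-led state and to 894 (Dll1+) and 833 (Dll1-) CPM in the Ube2c-led state, and to between 302 and 448 CPM in the others. H2afx was at 239.5 (232 to 247) CPM in the Rbp7-led state and at 231 (214 to 250.2) CPM and 242 (233 to 251) CPM in the Ube2c-led state, and between 19.2 and 25.9 CPM in the other states. Both of these states are those with many cell cycle transcripts, with 75.5% and 88.2% cycle-high cells in the Dll1+ library and 94.5% in the Dll1- library. Because states were defined by clustering the same cells, differences between them are descriptions. The map of levels by state and class draws all 30 genes.

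**Figure D4:**
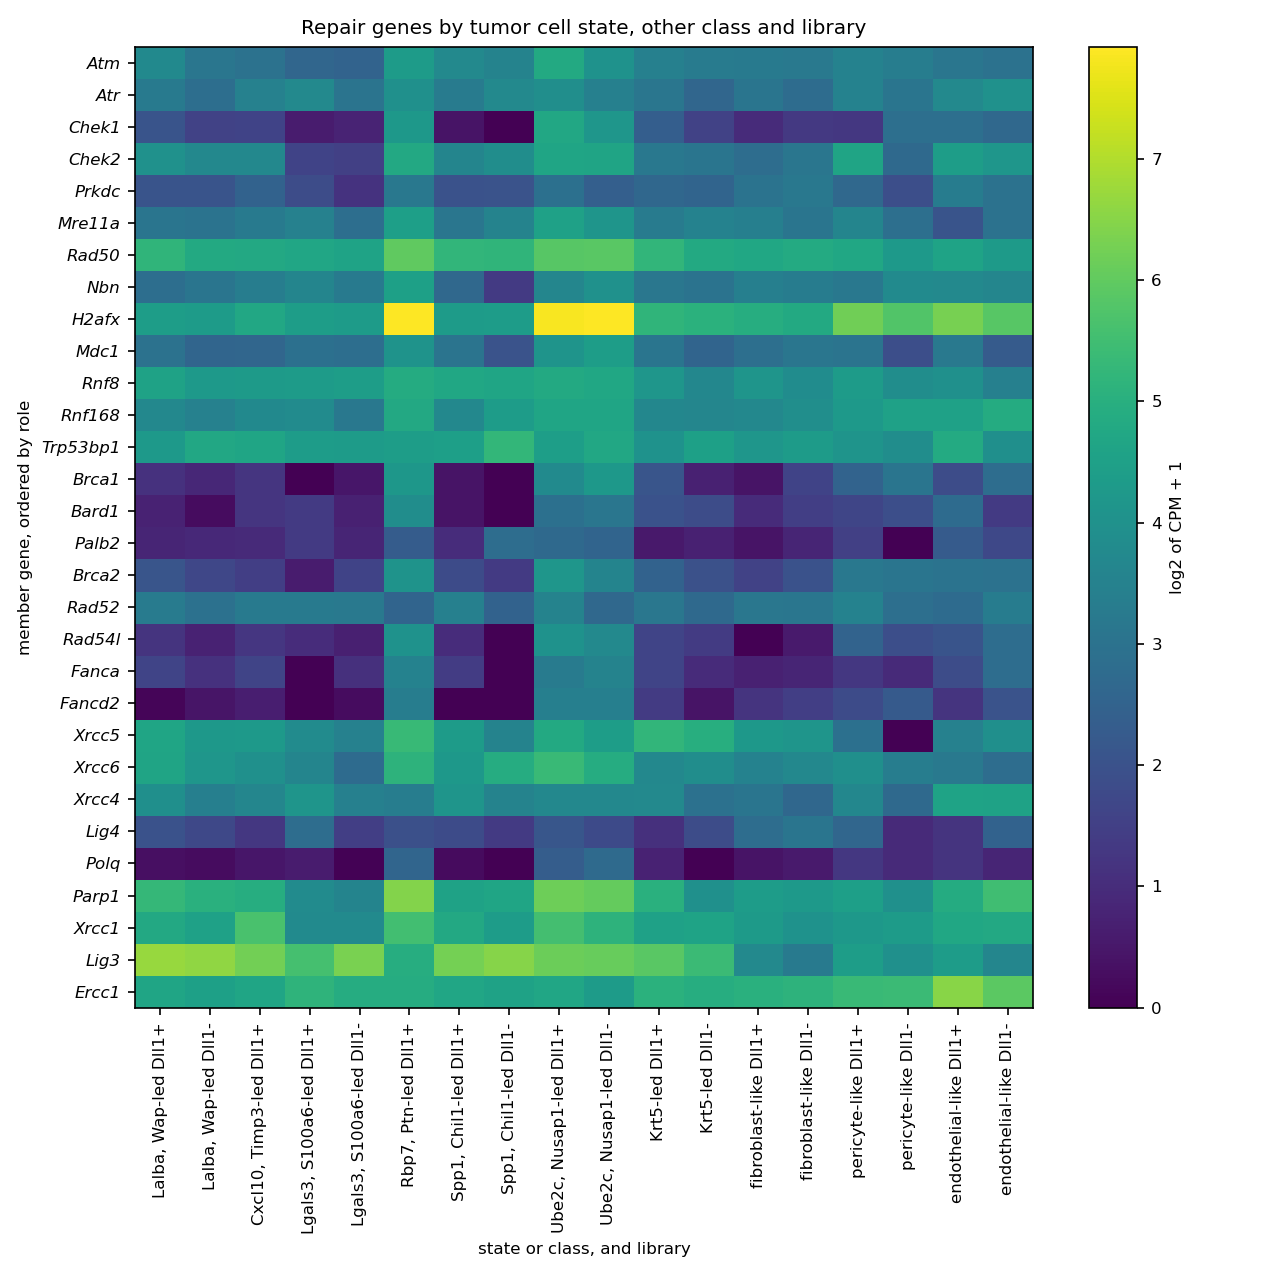
Each column is a sub-state of epithelial-like cells with at least 100 cells of a library, or another cell class, and each row 1 of the 30 genes by role; colour gives the log2 of CPM plus 1, from dark (0) to bright, to be read along a row. The H2afx row is brightest in the Rbp7-led and Ube2c-led columns (231 to 242 CPM), and among epithelial states the Chek2 row is darkest in the Lgals3-led columns.

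Some genes also differed between states with few cell cycle transcripts. Xrcc1 was at 48.7 (46.7 to 50.8) CPM in the Cxcl10-led state, at 26.6 (23.7 to 29.7) CPM (Dll1+) and 22.2 (21.1 to 23.4) CPM (Dll1-) in the Lalba- and Wap-led state and at 12.8 (8.27 to 18.9) CPM and 12.8 (11.5 to 14.2) CPM in the Lgals3-led state. Xrcc1 was thus within error the same in both libraries in the Lgals3-led state, and higher in the Dll1+ library in the Lalba- and Wap-led state. The Cxcl10-led state, in which it was at 48.7 CPM, held nearly only Dll1+ cells. Chek2 was at 2.05 (0.557 to 5.24) CPM and 1.81 (1.35 to 2.38) CPM in the Lgals3-led state and at 15.01 (12.9 to 17.4) CPM and 11.9 (11.1 to 12.8) CPM in the Lalba- and Wap-led state. Parp1 and Xrcc6 were lower in the Lgals3-led state too, with ratios to the Lalba- and Wap-led state of -1.45 and -1.003 in the Dll1+ and -1.43 and -1.37 in the Dll1- library. Between these states 8 of 28 genes were at least 1.5-fold lower in the Lgals3-led state and 0 higher in the Dll1- library, against 26.0% and 12.1% of all genes, so the count lay near the background. In the Dll1+ library 9 of 23 were lower and 2 higher (Nbn and Lig4), against 26.3% and 15.7%. Lig3 was at 103 (97.1 to 109) CPM and 96.2 (93.8 to 98.7) CPM in the Lalba- and Wap-led state and at 29.4 (26.8 to 32.3) CPM in the Rbp7-led state.

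The libraries were also compared within each of the 4 states that both held. In the Lalba- and Wap-led state 1 of 27 genes measured was at least 1.5-fold higher in the Dll1+ library (Atm, 0.66, 0.41 to 0.91) and 0 lower, against 7.07% and 3.92% of genes, with a median of 0.31 against 0.12 for all genes. In the Ube2c-led state 3 of 30 were higher, Atm (0.77), Rad52 (0.86) and Brca2 (0.60), and 0 lower, against 7.83% and 7.02%. Atm, the kinase that answers double-strand breaks, was thus the gene past 1.5-fold in both of these states. In the Lgals3-led state 7 of 23 were higher and 3 lower, against 19.0% and 5.61%, and in the Spp1-led state 5 of 19 were higher and 3 lower, against 12.7% and 10.6%. These rest on 196 Dll1+ and 123 Dll1- cells, and the counting interval excluded 0 for 5 genes above and 1 below in the former and for 0 above and 2 below in the latter. Intervals were not counted over all genes here either, so these counts have no background share.

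The 30 genes were also read in the other classes. The 30 genes summed to 407 (Dll1+) and 332 (Dll1-) CPM in Krt5-led cells (333 and 319 cells), to 294 and 293 CPM in fibroblast-like cells, to 406 and 315 CPM in pericyte-like cells and to 484 and 434 CPM in endothelial-like cells. Lig3 was higher in epithelial-like and Krt5-led cells than in the 3 stromal classes of both libraries. It was at 69.9 (68.1 to 71.7) CPM and 88.3 (86.5 to 90.1) CPM in epithelial-like and 58.1 (51.1 to 65.7) CPM and 41.3 (34.5 to 49.2) CPM in Krt5-led cells, and at 12.3 (8.70 to 16.9) CPM and 8.71 (6.07 to 12.1) CPM in fibroblast-like, 20.3 (15.3 to 26.4) CPM and 14.8 (8.46 to 24.0) CPM in pericyte-like and 19.8 (13.5 to 28.1) CPM and 11.4 (6.39 to 18.8) CPM in endothelial-like cells. Relative to epithelial-like cells of its own library, the ratio in fibroblast-like cells was -2.41 (-2.87 to -1.99) and -3.20 (-3.66 to -2.77). Ercc1 went the other way, with 90.7 (76.4 to 107) CPM and 59.4 (46.9 to 74.1) CPM in endothelial-like against 25.5 (24.4 to 26.6) CPM and 23.6 (22.7 to 24.6) CPM in epithelial-like cells, ratios of 1.79 (1.54 to 2.04) and 1.30 (0.96 to 1.62). Free RNA of the far more numerous epithelial-like cells was not removed and its part was not tested; epithelial markers summed to 1330 (Dll1+) and 727 (Dll1-) CPM in pericyte-like cells.

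**Figure D5:**
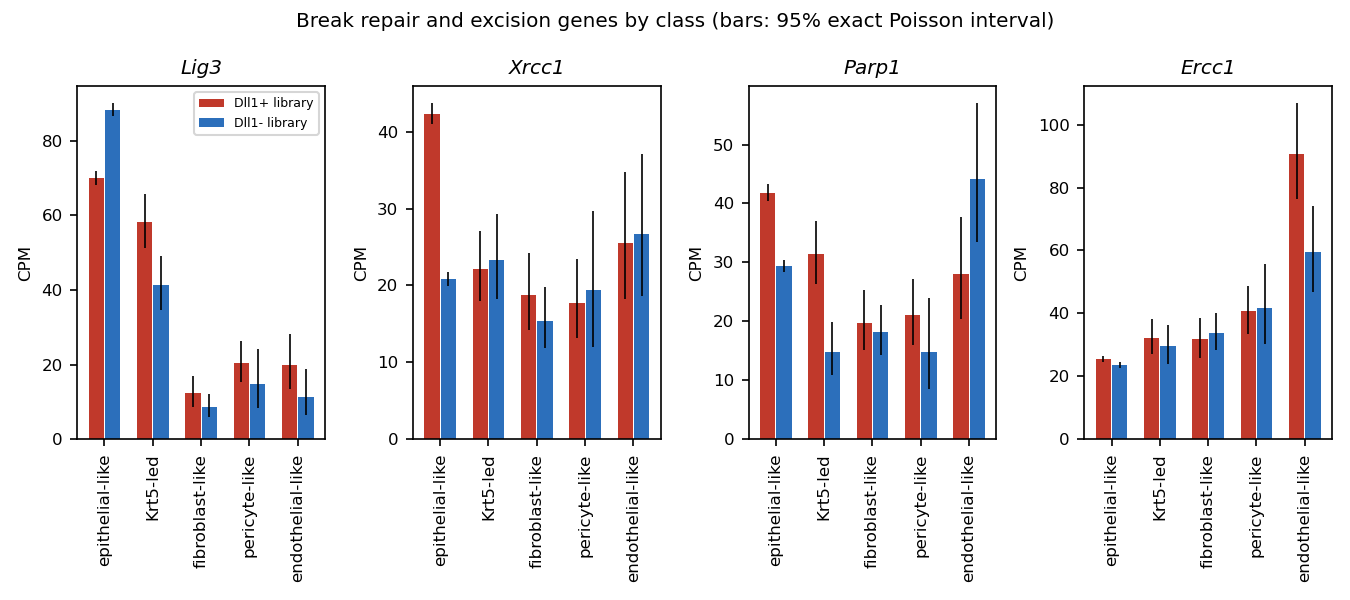
The vertical axes give CPM of Lig3, Xrcc1, Parp1 and Ercc1 and the horizontal axes the cell classes, with red bars for the Dll1+ and blue bars for the Dll1- library and 95% Poisson intervals as lines. Lig3 is highest in epithelial-like cells of both libraries (69.9 and 88.3 CPM) and Ercc1 in endothelial-like cells (90.7 and 59.4 CPM).

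Other genes also had class patterns found in both libraries. Lig4 was at 6.15 (3.70 to 9.60) CPM and 7.47 (5.04 to 10.7) CPM in fibroblast-like against 2.18 (1.87 to 2.52) CPM and 2.16 (1.88 to 2.45) CPM in epithelial-like cells. Xrcc4, its partner, was at 23.0 (16.1 to 31.8) CPM and 22.8 (15.4 to 32.6) CPM in endothelial-like against 12.00 (11.3 to 12.8) CPM and 10.1 (9.50 to 10.7) CPM in epithelial-like cells. Xrcc5 was at 36.4 (31.0 to 42.6) CPM and 30.4 (24.5 to 37.2) CPM in Krt5-led cells. In pericyte-like cells Xrcc5 had 18 UMIs in the Dll1+ and 0 in the Dll1- library, and a count of 0 allows a level of up to 2.78 CPM there (3 UMIs).

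These classes were compared between the libraries in the same way. In fibroblast-like cells (332 and 573) 0 of 21 genes measured were at least 1.5-fold higher or lower in the Dll1+ library, against 8.56% and 5.28% of genes, and the median was 0.031, which turned to -0.017 with TMM scaling. In Krt5-led cells 2 of 20 were higher, Parp1 (1.03, 0.56 to 1.51) and Xrcc4 (0.76, 0.087 to 1.46), and 0 lower, against 15.7% and 8.16%. In pericyte-like cells 5 of 18 were higher and 1 lower (Nbn), against 19.9% and 3.67%. Of the 396 Dll1+ pericyte-like cells 62 and 20 lay in 2 clusters with no Dll1- cell, and without them 4 of 17 were higher and 0 lower, against 16.7% and 4.17%. The largest of the 5 in all pericyte-like cells was Chek2, with 66 Dll1+ and 6 Dll1- UMIs (1.93, 0.85 to 3.09). Without the 2 clusters Chek2 had 60 and 6 UMIs (2.07, 0.98 to 3.24). In endothelial-like cells 3 of 14 were higher, Trp53bp1 (0.88), Lig3 (0.74) and Ercc1 (0.60), and 1 lower, Parp1 (-0.63), against 11.0% and 3.88%. Of the 301 Dll1+ endothelial-like cells 40 lay in a cluster led by Rgs5 with no Dll1- cell, and without them 2 of 14 were higher (Trp53bp1 and Ercc1) and 2 lower (Parp1 and Xrcc5), against 9.99% and 4.31%. Of the 573 Dll1- fibroblast-like cells 67 lay in a sub-state with no Dll1+ cell, and without them 0 of 21 were higher or lower, against 7.96% and 5.06%. The counts of UMIs were small in these classes, and 9 to 16 of the 30 genes had fewer than 30 UMIs.

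The relation to cell cycle transcripts was also measured in fibroblast-, pericyte- and endothelial-like cells together, where 87 Dll1+ and 60 Dll1- cells were cycle-high against 718 and 775 cycle-low cells. The class mix differed between them. Fibroblast-like cells, in which the 30 genes summed lowest, were 10 of the cycle-high and 286 of the cycle-low Dll1+ cells. In the Dll1- library they were 16 and 484. The part of this mix in the ratios was not tested. Of 21 genes measured 12 were at least 1.5-fold higher and 1 lower in cycle-high Dll1+ cells, against 16.2% and 18.8% of all genes, and 10 were higher and 2 lower in Dll1- cells, against 20.3% and 24.6%. H2afx had the most UMIs, at 280 against 18.8 CPM in Dll1+ (3.83, 3.50 to 4.16) and 205 against 18.9 CPM in Dll1- cells (3.37, 2.98 to 3.77). Brca1 had 18 against 0 UMIs and 18 against 3, too few in all to be counted as measured. Parp1 had ratios of 0.92 (0.34 to 1.48) and 1.89 (1.29 to 2.46).

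The other repair genes of the epithelial-like cells were set beside the 30, with 98 further genes of the same pathways. Between the libraries 24 of the 98 were at least 1.5-fold higher in the Dll1+ library and 2 lower, against 20.6% and 5.87% of all genes, with a median of 0.39. The share of 24.5% higher is near the background. Of the 22 among them that act in homologous recombination 11 were higher and 0 lower. Without the Rbp7-led and Sprr1a-led states 6 of the 98 were higher and 3 lower, against 19.3% and 5.92%, with a median of 0.093, and 4 of the 22 higher and 1 lower. The 3 highest ratios among those with at least 100 UMIs were those of Rpa1, which coats single-stranded DNA (25.0 against 9.05 CPM, 1.37), Ung, which removes uracil from DNA (13.0 against 5.45 CPM, 1.12), and Fancl, the ligase of the Fanconi complex (8.94 against 4.06 CPM, 0.97). The 3 lowest were those of Xpc, which recognises bulky lesions (16.8 against 30.3 CPM, -0.82), Wee1, the kinase that restrains entry into mitosis (133 against 223 CPM, -0.74), and Xpa, which verifies the lesion (18.1 against 25.7 CPM, -0.49). In cycle-high over cycle-low cells 60 of 98 were higher and 3 lower in the Dll1+ library and 59 of 97 higher and 2 lower in the Dll1- library, against 19.9% and 20% of all genes in the former and 18.2% and 11.9% in the latter. In homologous recombination these were 18 of 22 in each library, and in nucleotide excision repair 3 of 14 in each, or 21.4%, near the background. Without the Rbp7-led and Sprr1a-led states 54 of 98 were higher and 2 lower in the Dll1+ library, against 17.9% and 22.1%.

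The last exon of 6 of the 30 genes shares bases with a gene on the opposite strand in GENCODE M21, and the sources used here do not say whether reads were counted by strand, so their levels are uncertain to that extent. These are H2afx (with Gm44335), Rad54l (Lrrc41), Fanca (Zfp276), Fancd2 (Fancd2os), Lig3 (Rffl) and Ercc1 (Cd3eap). The overlap of Lig3 with Rffl is 1826 bases and that of Rad54l with Lrrc41 is 1184 bases. None of the 30 shares its last exon with a gene on the same strand.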

How the data were processed

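Per the labels' protocols the libraries are 10x Single Cell v3. The deposited values are raw UMI counts per gene and barcode, written by the authors' Cell Ranger run (4.0.0 per the file headers). Per the submitters' processing notes the build was mm10. The sources used here do not give the annotation or the handling of strand. Of 13819 Dll1+ and 13097 Dll1- barcodes (117230907 and 135960457 UMIs), those with at least 1000 UMIs, 500 genes and at most 20% mitochondrial UMIs were kept (10581 and 11121). The automatic doublet threshold of scrublet marked 3 and 0 barcodes and had not worked, so the highest-scoring 896 (8.47%) and 989 (8.89%) were removed, a rate of 0.8% per 1000 barcodes.

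Cells of both libraries were clustered together, without integration, in Python 3.11.15 with scanpy 1.11.5 and leidenalg 0.10.2 (2000 variable genes, 30 components, 15 neighbours, resolution 0.6, and 0.4 for sub-states). Classes were named from marker lists, by a scoring rule set after the data were seen. A cluster led by Krt5 and keratinocyte genes is called Krt5-led. UMIs were summed by class and library and given as CPM; genes with under 30 UMIs over both sides of a comparison were left out of its counts. With 1 library per group there is no test or p-value. Intervals are exact Poisson for CPM, Clopper-Pearson for shares and conditional binomial for ratios, with bounds on the scale of the ratio, log2 of CPM + 1. Being called means past 1.5-fold. TMM factors came from edgeR 4.0.16, which was used for nothing else. The ratios were checked on simulated data. Every one of the 30 genes is described, the fullest with values, and of other repair genes the 3 highest and 3 lowest with at least 100 UMIs. The genes, lists and rules were chosen with earlier results of these data known. Of the gene IDs 32235 of 32285 were found in GENCODE M21. Alternatives were the pseudocount, the count filter, TMM, thinning, doublets, shared barcodes, the mitochondrial limit, the clustering resolution, the limit of cycle-high cells and the weighting of states.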

Additional observations from a re-analysis of the deposited data

Results flagged for a closer look

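In 3 cases a gene's counting interval lay on 1 side of 0 in epithelial-like cells and on the other side in another class; the difference between the classes was not tested. Lig3 was higher in the Dll1+ library in Krt5-led cells, with a ratio of 0.48 (0.17 to 0.79) on 252 and 128 UMIs, and lower in epithelial-like cells (-0.33, -0.38 to -0.29). Trp53bp1 had a ratio of 0.88 (0.11 to 1.68) in endothelial-like cells, on 43 and 19 UMIs, and -0.11 (-0.19 to -0.027) in epithelial-like cells. Parp1 had a ratio of -0.63 (-1.21 to -0.059) in endothelial-like cells, on 44 and 58 UMIs, and 0.49 (0.43 to 0.56) in epithelial-like cells. Without the Rbp7-led state the epithelial ratio of Trp53bp1 was -0.082 (-0.17 to 0.0063), with 0 inside the interval. Those of Lig3 and Parp1 were then -0.16 (-0.21 to -0.11) and 0.10 (0.022 to 0.18).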

How the results depend on the processing

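No paired analysis was possible because each group has 1 library. For the counts below with thinning, 10 CPM added and shared sub-states, no share of all genes is given. The counts of epithelial genes at least 1.5-fold higher in the Dll1+ library moved from 7 to 3 with TMM (1 lower in place of 0), 4 with cells thinned to 2000 UMIs, 2 with 10 CPM added, 12 with none, and 1 with shared sub-states weighted alike, without the Rbp7-led state or without the Rbp7-led and Sprr1a-led states. The last 2 settings, that with no CPM added and that without clusters of 1 library were chosen after seeing the data. Their median of 0.46 moved to 0.24 (TMM), 0.21 (10 CPM), 0.12 (shared sub-states), 0.043 (without the Rbp7-led state) and 0.047 (without both states), and that of other repair genes, 0.39, to 0.21 (TMM), 0.17 (10 CPM), 0.16 (shared sub-states), 0.095 (without the Rbp7-led state) and 0.093 (without both). The fibroblast median of 0.031 turned to -0.017 (TMM) and -0.13 (no filter on low counts). The cycle-high over cycle-low medians moved to 0.76 (Dll1+) and 0.70 (Dll1-) with 10 CPM added, and the cycle-low library median of 0.25 to 0.045 (TMM) and 0.089 (10 CPM). Without both states the ratio of Brca1 turned to -0.43, H2afx to -0.41, Chek1 to -0.093 and Rad54l to -0.020, without the Rbp7-led state to -0.43, -0.41, -0.092 and -0.016, and with shared sub-states Brca1 to -0.32 and H2afx to -0.043. Fancd2 and Mdc1 turned to -0.38 and -0.16 without the Rbp7-led state, Brca2 to -0.16, Polq to -0.20, Palb2 to -0.15 and Lig4 to -0.059. Parp1 dropped to 0.10 in that setting. Of the values that answer a comparison, 107 under these and the other alternatives stayed within their error, 22 moved and 2 reversed. The epithelial library ratios of single genes were less stable: 249 stayed, 130 moved and 10 reversed. With TMM 25 of the 30 genes moved, and with shared sub-states 23 moved and 2 reversed. Without the Rbp7-led state 19 moved and 4 reversed. Why each moved was not tested. Depth limits genes with few UMIs, such as Polq with 110 and 77 in epithelial-like cells, and 1 tumor per group limits every comparison between the libraries.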

Other observations

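Cells between the cycle-low and cycle-high ranges gave levels in between for several genes. Brca1 was at 4.72 (3.40 to 6.38) CPM in intermediate Dll1+ and 3.42 (2.34 to 4.83) CPM in intermediate Dll1- cells, and H2afx at 49.3 (44.8 to 54.1) CPM and 29.4 (26.0 to 33.1) CPM. Chek1, the checkpoint kinase of replication, was at 10.3 (8.33 to 12.7) CPM and 4.70 (3.42 to 6.31) CPM. The intermediate cells numbered 689 and 756.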
